A study of Mus musculus with 6 samples.

Results

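The genes described here are 70 mouse protein-coding genes of 14 families of developmental transcription factors: Pax, Lhx, Nkx, sine oculis homologs, Dlx, Irx, Msx, Otx, Gbx, Meis, Pbx, Emx, Alx and Prrx. They were taken by symbol and family number from the GENCODE M21 annotation, with no filter on expression, out of 51912 Ensembl genes listed for each library, and all 70 are listed. They were compared between 3 control and 3 knockout libraries of total RNA from mouse embryonic stem cells of strain C57BL/6, sequenced as mRNA profiles. The control cells have the genotype Rbbp4F/F, a floxed allele pair, and the knockout cells are Rbbp4-/-. Rbbp4 encodes a histone-binding WD-repeat protein found in several chromatin complexes. The labels give no deleted exons, Cre, clone, culture condition or passage, and they leave unsaid whether a group's libraries are separate cultures. All p-values are thus relative to a spread between libraries that may be technical only. Values given for single libraries stand in the order of the replicate numbers 1 to 3, control first.

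Homeobox genes encode transcription factors that bind DNA through a homeodomain, and the genes outside the Hox clusters pattern the head, eye, heart, limb, neural tube and placodes. Most of the families named here do so in restricted places of the embryo, while Pbx and Meis proteins are widely expressed partners of other homeodomain proteins. Pax proteins are defined by the paired domain, and Pax1 and Pax9 have no homeodomain at all, so not every gene of the set is a homeobox gene. In undifferentiated embryonic stem cells most of these regulators are held at low levels under Polycomb-marked chromatin, and Gbx2 is a known exception that is active in the naive state.

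The values are FPKM, fragments scaled to transcript length and to the library's total, so levels can be compared between genes on this scale. Depth was estimated at 25.7 to 28.4 M fragments per library from the spacing of low values, and 1 fragment on a 2 kb transcript was worth 0.0202 to 0.0225 FPKM. Rbbp4 itself stood at 58.47, 56.97 and 61.75 FPKM in control and 21.28, 12.73 and 11.09 FPKM in knockout cells (log2 fold change of -1.96 with SE 0.22, adjusted p = 0.000394 by limma). Knockout library 1 had the highest remaining Rbbp4 level and lay apart from the other 2 knockout libraries on the second principal component, which held 9.37% of the variance. Of 10 embryonic stem cell markers 9 fell, and their summed level was 5012 to 5157 FPKM in the control and 1548 to 2359 FPKM in the knockout libraries. Of 8 tested trophoblast markers 7 rose (summed 31.57 to 42.23 FPKM against 105 to 195.1 FPKM), with Tpbpa and Prl3d1 listed at 0 throughout, and of 6 tested neural markers 5 fell and 1 rose (summed 183.3 to 220.1 FPKM against 47.51 to 55.4 FPKM). Tubb3 was the largest part of the neural sum, at 148.8 and 26.24 FPKM in the means. Without a filter 3 neural markers were higher and 6 lower of 12. Fibroblast or feeder markers summed to 15.94 to 22.58 FPKM in the control and 16.18 to 19.3 FPKM in the knockout libraries, with Fap at 0 in all, but moved in both directions: of 3 tested, Fbn1 (0.587 to 3.01 FPKM in the means) and Twist1 rose and Thy1 (14.8 to 7.68 FPKM) fell, with 4 higher and 1 lower of 11 when no filter was set. Neural crest markers summed to 14.39 to 19.97 FPKM against 17.46 to 19.76 FPKM, with Ednrb at 0, while of 3 tested Ets1 (0.673 to 5.61 FPKM) and Snai1 (3.86 to 8.89 FPKM) rose and Foxd3 (11.6 to 1.5 FPKM) fell. Primitive endoderm markers summed to 28.25 to 30.57 FPKM against 15.45 to 18.8 FPKM with Lama1 at 23.1 and 3.65 FPKM in the means, and of 5 tested 2 rose and 1 fell, with 6 higher and 1 lower of 10 without a filter. Mesoderm markers summed to 7.8 to 10.51 FPKM against 7.39 to 9.61 FPKM, with Msgn1 at 0, and of 3 tested Mesp2 rose and Kdr fell. The part of these shifts in the results that follow was not tested. In bulk libraries, fewer cells of a type and less RNA per cell cannot be told apart.

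More of the 70 genes were detected in the knockout libraries. The number at 1 FPKM or more was 18, 16 and 19 in control libraries 1 to 3 and 33, 28 and 28 in knockout libraries 1 to 3, and the number above 0 was 59, 57 and 59 against 66, 68 and 67. The median level of the 70 genes was 0.375, 0.39 and 0.38 FPKM in control and 0.895, 0.67 and 0.69 FPKM in knockout cells. Every knockout library lay above every control on all of these measures. The same counts were not made over all protein-coding genes. Of those above 0 in any library, 36.0% had every knockout library above every control and 20.2% had every one below. The summed level of the 70 genes was 148.2 to 164.8 FPKM in the control and 153.5 to 184.4 FPKM in the knockout libraries, so the groups overlapped there. Gbx2 and Pbx2 were the 2 most abundant of the genes in each control library.

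The difference was tested with limma on log2(FPKM + 1), knockout minus control, over the 13579 genes that reached 1 FPKM in 3 or more of the libraries, with Benjamini-Hochberg adjustment and a threshold of 0.05. Of the 70 genes 26 passed this filter, 12 were higher and 8 lower, and 6 were not called. Over all genes tested 36.7% were higher and 22.5% lower, with a median log2 fold change of 0.17. Of the 12 higher genes 7, among them Lhx2, Msx2, Nkx2-5, Nkx2-9, Otx1 and Pax3, passed it through the knockout libraries only and so had to differ to be tested. Otx2 was among the lower genes that passed only through the controls. The other 5 higher genes were Meis1, Meis3, Nkx6-2, Pbx3 and Pbx4, and the lower genes that reached 1 FPKM in more than the controls included Gbx2, Nkx2-4, Nkx6-3, Pbx2 and Six4.

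Because 44 of the 70 genes lay under the filter, the fit was also made on every gene above 0 in any library. It tested 69 of the 70 genes, all but Pax4, and called 28 higher and 9 lower, against 25.8% higher and 14.3% lower over the 18016 protein-coding genes tested in the same way. The 9 lower calls fell to 5 without control library 1 and to 5 without knockout library 2, while the higher calls ranged from 19 to 27 with 1 library left out and stood at 27 without knockout library 1. Without any test, all 3 knockout libraries lay above all 3 controls for 37 of the 70 genes and below them for 10. Among protein-coding genes above 0 in any library the same shares were 36.0% and 20.2%.

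Read by level, the share of higher genes stood furthest from the background at the low end. Of the 45 genes with a mean of all 6 libraries under 1 FPKM, 17 were higher (37.8%) and 3 lower (6.67%), where 12.8% and 4.27% of protein-coding genes of that level were called. Under 0.3 FPKM, 8 of 22 genes were higher (36.4%) and none was lower, beside 7.88% and 2.28% of protein-coding genes. Among these 8, the calls of Alx4, Emx2, Nkx2-2 and Six6 were lost under 9, 8, 5 and 10 of the 10 other settings run for that fit. Calls lost under other settings were not counted by level for the protein-coding genes. From 0.3 to 1 FPKM the higher share was 39.1% beside 25.1%, and at 1 FPKM or more it was 45.8% beside 32.1%. The median log2 fold change of the 69 genes was 0.29, and that of the protein-coding genes was 0.07. By level the medians were 0.172 beside 0.023 under 0.3 FPKM and 0.346 beside 0.194 from 0.3 to 1 FPKM. At 1 FPKM or more they were 0.592 beside 0.168, so the gap in medians was widest at the high end. The level classes were set after the data were seen, and no test compares the genes with the background.

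**Figure D1:**
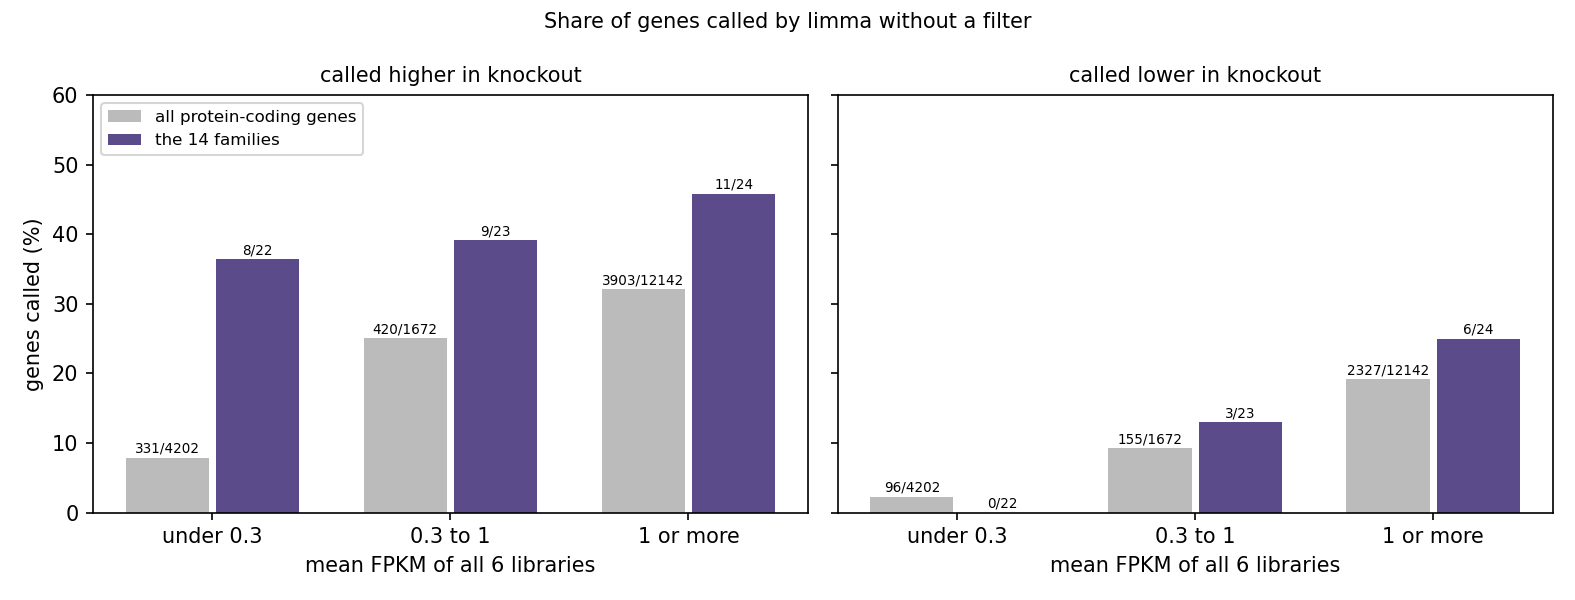
Share of genes called by limma without a filter (y axis, %), higher in the knockout on the left and lower on the right, by mean FPKM of all 6 libraries (x axis), for the 14 families and for all protein-coding genes, with called and tested counts above each bar. The 14 families stand at 36.4%, 39.1% and 45.8% higher in the 3 level classes, where all protein-coding genes stand at 7.88%, 25.1% and 32.1%.

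**Figure D2:**
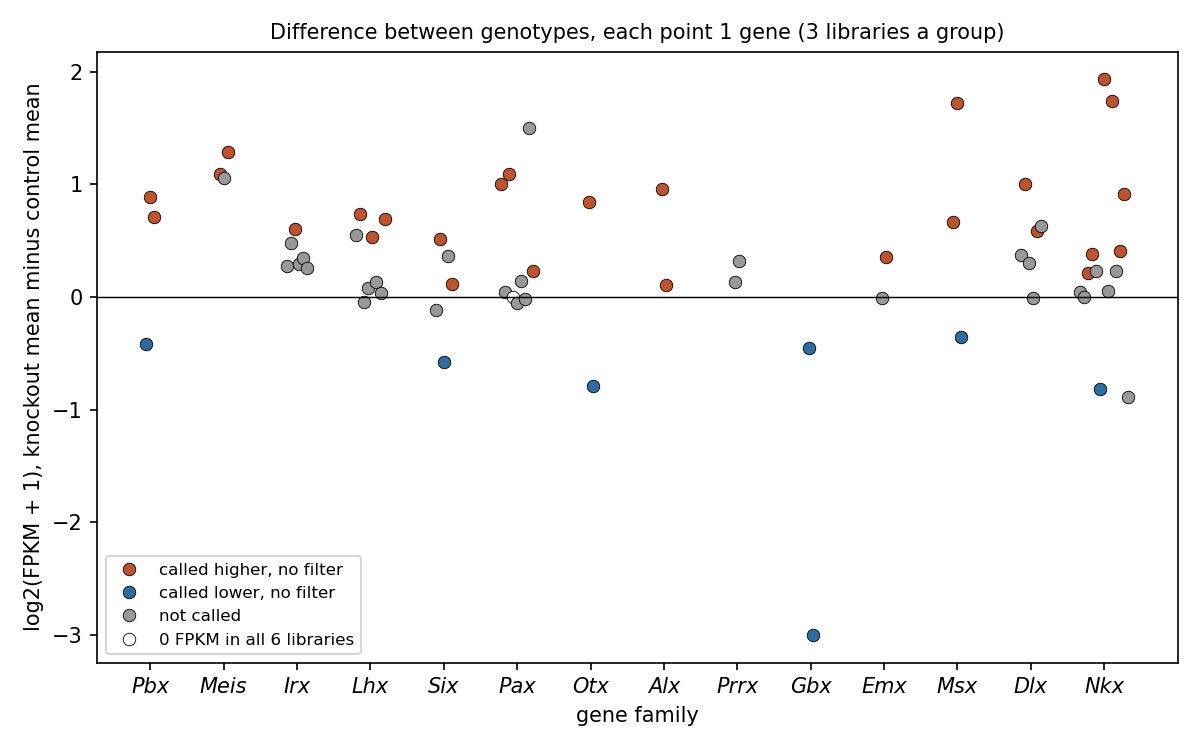
Difference of group means on the log2(FPKM + 1) scale, knockout minus control (y axis), for 66 of the 70 genes by family (x axis), coloured by the limma call without a filter (3 libraries a group). Meis and Irx genes all lie above 0, both Gbx genes lie below 0, and the Pbx, sine oculis, Otx, Msx and Nkx families hold genes called in both directions.

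The Pbx genes encode TALE homeodomain proteins that bind DNA together with Hox and Meis proteins, and Pbx2 fell while Pbx3 and Pbx4 rose. Pbx2 (ENSMUSG00000034673, chr17:34591266-34597400, plus strand) had 40.44, 45.61 and 40.88 FPKM in control and 32.11, 29.42 and 32.65 FPKM in knockout cells. It fell by a small margin with no overlap between the groups (log2 fold change of -0.42 with SE 0.09, adjusted p = 0.00542 by limma), and exons of Gpsm3 on the same strand cover 6.2% of its exonic sequence.

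Pbx4 and Pbx3 moved the other way. Pbx4 (ENSMUSG00000031860, chr8:69832491-69872292, plus strand) measured 13.95, 11.16 and 12.01 FPKM in control and 24.35, 19.38 and 18.92 FPKM in knockout cells and rose (log2 fold change of 0.71 with SE 0.13, adjusted p = 0.00384 by limma). Pbx3 (ENSMUSG00000038718, chr2:34171457-34373142, minus strand) measured 8.31, 6.06 and 5.44 FPKM in control and 11.57, 15.94 and 11.65 FPKM in knockout cells and rose as well (log2 fold change of 0.89 with SE 0.19, adjusted p = 0.0059 by limma). Neither gene had overlapping groups, and knockout library 2 was the highest for Pbx3 while knockout library 1 was the highest for Pbx4. In the order of means, control and knockout libraries both ran Pbx2, Pbx4, Pbx3, with Pbx4 and Pbx3 nearer to Pbx2 in the knockout.

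Meis proteins are the TALE partners that form complexes with Pbx and Hox proteins, and 2 of the 3 Meis genes rose. Meis3 (ENSMUSG00000041420, chr7:16175090-16186504, plus strand) had 3.44, 3.45 and 3.89 FPKM in control and 11.36, 9.82 and 9.5 FPKM in knockout cells, a 2.85-fold ratio of means (log2 fold change of 1.29 with SE 0.12, adjusted p = 0.000217 by limma). Meis1 (ENSMUSG00000020160, chr11:18879817-19018985, minus strand) had 1.7, 2.32 and 2.78 FPKM in control and 5.19, 6.27 and 6.33 FPKM in knockout cells, and it rose too (log2 fold change of 1.09 with SE 0.17, adjusted p = 0.00142 by limma). Every knockout library exceeded every control for both genes. For Meis1, exons of Gm16140 on the opposite strand cover 8.5% of its exonic sequence and exons of Gm37818 on the same strand cover 9.8%. Meis2 was near 0 in the controls, with 0.03, 0.05 and 0.04 FPKM in control and 0.39, 3.28 and 0.71 FPKM in knockout cells. Knockout library 2 stood far above the other knockout libraries. The gene was not called (log2 fold change of 1.06 with SE 0.42, adjusted p = 0.115 by limma without a filter), and it was when that library was left out (log2 fold change of 0.57, adjusted p = 0.0195 by limma without a filter). With all 6 libraries and a pseudocount of 0.1 it was called too (log2 fold change of 2.98, adjusted p = 0.0223 by limma without a filter). The summed Meis level was 5.17 to 6.71 FPKM in the control and 16.5 to 19.4 FPKM in the knockout libraries.

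The Irx genes, the Iroquois family of TALE proteins that act in neural, heart and limb patterning, gave values that leaned higher with few calls. Irx2, the most abundant, had 4.48, 2.5 and 3.14 FPKM in control and 5.24, 3.96 and 5.91 FPKM in knockout cells. Its groups overlapped and it was not called (log2 fold change of 0.48 with SE 0.21, adjusted p = 0.0882 by limma), although it was without control library 1 (log2 fold change of 0.65, adjusted p = 0.0426 by limma). Irx3 had 0.22, 0.58 and 0.66 FPKM in control and 0.98, 1.57 and 1.2 FPKM in knockout cells, with all knockout libraries above the controls. Its call without a filter (log2 fold change of 0.60 with SE 0.18, adjusted p = 0.048 by limma without a filter) was lost under 9 of the 10 other settings run for that fit. Irx5 had 0.72, 0.75 and 0.39 FPKM in control and 1.19, 0.97 and 0.99 FPKM in knockout cells and was not called (log2 fold change of 0.35, adjusted p = 0.12 by limma without a filter). The other 3 genes, Irx1, Irx4 and Irx6, lay at 0.07 to 0.83 FPKM in the control and 0.21 to 1.33 FPKM in the knockout libraries, and none was called.

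Lhx genes encode LIM-homeodomain factors of forebrain, limb, gonad and motor neuron development, and 1 of the 2 tested genes rose. Lhx2 (ENSMUSG00000000247, chr2:38339281-38369733, plus strand), a factor of the eye field and cortex, had 0.59, 0.94 and 0.54 FPKM in control and 1.65, 1.75 and 1.99 FPKM in knockout cells. It rose (log2 fold change of 0.73 with SE 0.15, adjusted p = 0.00508 by limma) with no overlap, having passed the filter through the knockout libraries only. Lhx6, a factor of cortical interneurons, had 1.09, 0.75 and 0.83 FPKM in control and 1.13, 0.87 and 1.2 FPKM in knockout cells. Its groups overlapped and it was not called (log2 fold change of 0.13, adjusted p = 0.469 by limma), and the sign of its difference turned with upper-quartile scaling.

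Lhx9 and Lhx5 lay under the filter and were called without it. Lhx9, which acts in gonad and limb formation, had 0.03, 0.03 and 0 FPKM in control and 0.64, 0.53 and 0.77 FPKM in knockout cells (log2 fold change of 0.69 with SE 0.07, adjusted p = 0.00131 by limma without a filter). Lhx5, a forebrain factor, had 0.1, 0.16 and 0.08 FPKM in control and 0.47, 0.79 and 0.59 FPKM in knockout cells (log2 fold change of 0.53 with SE 0.09, adjusted p = 0.00711 by limma without a filter). For both, every knockout library was above every control, and the Lhx9 control values correspond to few fragments. The other 4 genes (Lhx1, Lhx3, Lhx4 and Lhx8) lay at 0 to 0.37 FPKM in the control and 0.04 to 1.14 FPKM in the knockout libraries with no call, and Lhx4 was listed at 0 in all controls.

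LIM-homeodomain proteins work with the bridging cofactor Ldb1, the Ssbp proteins that stabilise it and the LIM-only proteins that compete for it. A list of 10 genes held such genes and Rlim. Of these 10 genes 8 were tested, 4 were higher and 2 lower, with a median log2 fold change of 0.67. Over all genes tested with the filter 36.7% were higher and 22.5% lower. Rlim was 1 of the higher genes (log2 fold change of 1.41 with SE 0.22, adjusted p = 0.00174 by limma) and is named outside the rule after its value was seen. Lmo4, a LIM-only protein, rose from 6.06 ± 0.660 FPKM (SD, n = 3) to 22.9 ± 1.34 FPKM (SD, n = 3) (log2 fold change of 1.76 with SE 0.11, adjusted p = 5.74e-05 by limma). Ssbp3 rose from 57.3 ± 0.520 FPKM (SD, n = 3) to 131 ± 17.4 FPKM (SD, n = 3) (log2 fold change of 1.17 with SE 0.11, adjusted p = 0.000188 by limma), and Ssbp2 also rose (log2 fold change of 1.05, adjusted p = 0.00071 by limma). Ldb1 itself fell from 110.2 ± 3.29 FPKM (SD, n = 3) to 88.0 ± 6.65 FPKM (SD, n = 3) (log2 fold change of -0.32, adjusted p = 0.0103 by limma) and Ssbp4 fell from 67.7 ± 3.81 FPKM (SD, n = 3) to 33.8 ± 6.46 FPKM (SD, n = 3) (log2 fold change of -1.0, adjusted p = 0.000895 by limma), both named outside the rule after their values were seen. For the TALE proteins, 1 of 6 tested partners or antagonists rose and 2 fell, with a median of -0.02. Tgif1, a TALE repressor, fell from 157 ± 4.11 FPKM (SD, n = 3) to 82.3 ± 4.15 FPKM (SD, n = 3) (log2 fold change of -0.92 with SE 0.07, adjusted p = 9.34e-05 by limma), and Tgif2 fell (log2 fold change of -0.53, adjusted p = 0.0112 by limma). Pbxip1, which binds Pbx proteins, rose from 3.53 ± 0.465 FPKM (SD, n = 3) to 8.82 ± 0.316 FPKM (SD, n = 3) (log2 fold change of 1.12 with SE 0.13, adjusted p = 0.000405 by limma).

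The family named for sine oculis held genes of both directions. Six4 (ENSMUSG00000034460, chr12:73099609-73113456, minus strand), which acts in muscle, kidney and sensory placodes, had 6.76, 6.92 and 8.15 FPKM in control and 3.83, 4.9 and 4.96 FPKM in knockout cells. It fell (log2 fold change of -0.58 with SE 0.14, adjusted p = 0.0108 by limma), and all knockout libraries lay below all controls. Six5 had 1.33, 1.17 and 1.22 FPKM in control and 1.86, 2.4 and 1.45 FPKM in knockout cells, with every knockout value above the controls, and was not called (log2 fold change of 0.36, adjusted p = 0.088 by limma).

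Six3 and Six6, the pair that acts in the anterior forebrain and eye, had higher values in the knockout at low levels. Six3 had 0.13, 0.16 and 0.19 FPKM in control and 0.79, 0.69 and 0.49 FPKM in knockout cells (log2 fold change of 0.51 with SE 0.09, adjusted p = 0.00778 by limma without a filter). Six6 had 0.06, 0.03 and 0.01 FPKM in control and 0.12, 0.1 and 0.13 FPKM in knockout cells, and its call (log2 fold change of 0.11, adjusted p = 0.0396 by limma without a filter) was lost under all 10 other settings run for that fit. Exons of 4930447C04Rik on the opposite strand cover 4.8% of Six6. 4930447C04Rik had 6.53, 6.69 and 10.13 FPKM in control and 7.97, 13.14 and 15.57 FPKM in knockout cells. Six2, a kidney progenitor factor, overlapped between the groups at 0.6 to 0.81 and 0.22 to 0.81 FPKM. Pax proteins and those of the sine oculis, Eya and Dach families form a regulatory network in placodes, muscle and kidney. Of 6 Eya and Dach genes 3 were tested, none was called by limma, and none had an unadjusted p under 0.05, while 1 was called higher without a filter.

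The Pax genes were almost all near 0 in the controls. Pax6, the eye and forebrain regulator, was the exception with 0.97, 0.87 and 1.25 FPKM in control and 1.19, 1.4 and 1.11 FPKM in knockout cells. Its groups overlapped and it was not called (log2 fold change of 0.14, adjusted p = 0.423 by limma), and its sign also turned with upper-quartile scaling. Pax3 (ENSMUSG00000004872, chr1:78101267-78197134, minus strand), a regulator of neural crest and muscle progenitors, had 0.02, 0 and 0.03 FPKM in control and 1.07, 1.28 and 1.15 FPKM in knockout cells. It rose evenly in all 3 knockout libraries (log2 fold change of 1.09 with SE 0.13, adjusted p = 0.000472 by limma), and it fell under the filter with upper-quartile scaling, where it was not tested. The control values of 0 to 0.03 FPKM are worth so few fragments that no ratio is given.

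Pax1 and Pax9, the paired-domain factors of the sclerotome and pharyngeal pouches, were both called without a filter. Pax1 had 0.05, 0.15 and 0.13 FPKM in control and 1.53, 1.47 and 0.77 FPKM in knockout cells (log2 fold change of 1.01 with SE 0.16, adjusted p = 0.00609 by limma without a filter). Pax9 had 0.01, 0.02 and 0.04 FPKM in control and 0.2, 0.2 and 0.2 FPKM in knockout cells (log2 fold change of 0.23 with SE 0.03, adjusted p = 0.00275 by limma without a filter). The knockout values lay above the controls for both, and the 3 knockout values of Pax9 were equal as deposited. Exons on the opposite strand cover 4.1% of Pax1 (AI646519) and 3.7% of Pax9 (Slc25a21).

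Pax8, a thyroid and kidney factor, had 0.39, 0.12 and 0.11 FPKM in control and 10.96, 0.24 and 1.62 FPKM in knockout cells. Almost all of its signal came from knockout library 1, knockout library 2 lay within the range of the controls, and it was not called (log2 fold change of 1.5, adjusted p = 0.231 by limma without a filter). Without knockout library 1 the log2 fold change was 0.59. Pax2, Pax5 and Pax7 lay at 0 to 0.43 FPKM in the control and 0 to 0.22 FPKM in the knockout libraries with no call, and Pax4 was listed at 0 in all 6.

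The Otx genes changed in opposite directions. Otx2 (ENSMUSG00000021848, chr14:48657677-48673819, minus strand), the anterior head regulator that also acts as embryonic stem cells leave the naive state, had 1.37, 1.25 and 1.33 FPKM in control and 0.59, 0.25 and 0.21 FPKM in knockout cells. It fell (log2 fold change of -0.79 with SE 0.15, adjusted p = 0.00435 by limma). Otx1 (ENSMUSG00000005917, chr11:21994764-22002897, minus strand), a factor of cortex and sense organs, had 0.3, 0.71 and 0.46 FPKM in control and 2.26, 1.23 and 1.58 FPKM in knockout cells. It rose (log2 fold change of 0.84 with SE 0.19, adjusted p = 0.00814 by limma), so that all controls had Otx2 above Otx1 and all knockout libraries had Otx1 above Otx2. Both genes passed the filter through 1 group only. Exons on the opposite strand (Otx2os1) cover 3.6% of Otx2.

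Alx genes, aristaless-like factors of the craniofacial mesenchyme, were low in the controls. Alx1 had 0.17, 0 and 0.03 FPKM in control and 1.49, 0.97 and 0.79 FPKM in knockout cells, with every knockout library above every control, and it was called higher (log2 fold change of 0.95 with SE 0.15, adjusted p = 0.00527 by limma without a filter). Alx4 had 0.02, 0 and 0 FPKM in control and 0.12, 0.07 and 0.06 FPKM in knockout cells, and its call (log2 fold change of 0.11, adjusted p = 0.0471 by limma without a filter) was lost under 9 of the 10 other settings run for that fit. Exons of Gm17028 on the same strand cover 4.2% of Alx1. The related mesenchymal gene Prrx2 had 1.77, 0.89 and 1.71 FPKM in control and 1.48, 2.59 and 2.09 FPKM in knockout cells, with overlapping groups and no call (log2 fold change of 0.32, adjusted p = 0.238 by limma). Prrx1 lay at 0 to 0.02 and 0.03 to 0.26 FPKM and was not called.

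Gbx2 had the largest difference of the 70 genes in either direction on the log2(FPKM + 1) scale. It encodes a homeodomain factor that sets the midbrain-hindbrain boundary in the embryo and helps maintain naive embryonic stem cells downstream of LIF and Stat3. Gbx2 (ENSMUSG00000034486, chr1:89927956-89931179, minus strand) had 39.16, 53.01 and 36.76 FPKM in control and 5.37, 3.98 and 4.04 FPKM in knockout cells. Its means were 43.0 ± 8.77 FPKM (SD, n = 3) in the control and 4.46 ± 0.786 FPKM (SD, n = 3) in the knockout, 9.63-fold lower (log2 fold change of -3.0 with SE 0.17, adjusted p = 4.60e-05 by limma), and the groups were far apart. Exons of D130058E05Rik on the opposite strand cover 43.5% of the exonic sequence of Gbx2, and that gene was also lower (log2 fold change of -1.22, adjusted p = 0.00679 by limma), at 4.33, 5.4 and 6.13 FPKM in control cells and a mean of 1.80 ± 1.05 FPKM (SD, n = 3) in knockout cells. Gbx1, its paralog, had 0.68, 0.58 and 0.55 FPKM in control and 0.16, 0.19 and 0.16 FPKM in knockout cells and was lower without a filter (log2 fold change of -0.45 with SE 0.06, adjusted p = 0.00367 by limma without a filter). The embryonic stem cell markers, of which 9 of 10 fell, moved with Gbx2, and their part in its change was not tested.

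The 250 bases before the transcription start are printed for Gbx2, which fell most, and for Dlx2 and Nkx2-9, which were near 0 or low in the controls and were called higher. They are RefSeq sequences of build GRCm38.p6, 5′ to 3′ on the gene's strand, with CpG pairs in capitals. They lie at chr1:89931177-89931426, minus strand for Gbx2 (18 CpG), chr2:71546755-71547004, minus strand for Dlx2 (24 CpG) and chr12:56613285-56613534, minus strand for Nkx2-9 (13 CpG).
Gbx2: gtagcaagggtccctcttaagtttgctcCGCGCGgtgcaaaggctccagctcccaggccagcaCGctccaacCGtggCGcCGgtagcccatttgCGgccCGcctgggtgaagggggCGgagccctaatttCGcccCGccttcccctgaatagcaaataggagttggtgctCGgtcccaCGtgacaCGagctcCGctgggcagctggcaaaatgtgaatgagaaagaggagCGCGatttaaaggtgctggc
Dlx2: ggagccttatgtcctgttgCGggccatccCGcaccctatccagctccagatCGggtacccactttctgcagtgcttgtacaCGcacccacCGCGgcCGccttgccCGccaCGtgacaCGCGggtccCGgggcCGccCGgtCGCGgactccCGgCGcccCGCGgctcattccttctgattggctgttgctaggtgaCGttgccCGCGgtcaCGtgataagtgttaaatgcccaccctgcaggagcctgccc
Nkx2-9: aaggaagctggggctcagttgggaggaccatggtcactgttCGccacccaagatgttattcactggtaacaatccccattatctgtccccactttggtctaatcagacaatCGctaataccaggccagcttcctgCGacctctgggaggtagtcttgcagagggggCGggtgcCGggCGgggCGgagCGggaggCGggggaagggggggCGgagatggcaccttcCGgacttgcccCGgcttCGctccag

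CpG pairs were frequent in these 3 stretches and in the set as a whole. Of the 70 genes 49 matched the promoter table, and they had a median of 15 CpG (range 4 to 33) in the 250 bases, where 16477 protein-coding genes had a median of 10. The median was 13 in the 20 matched genes called higher without a filter, 18 in the 6 called lower and 19 in the 23 others. The homeodomain core TAATTA, its own reverse complement, was found in 3 of the 49 (6.12%) and in 4.38% of all promoters. The TALE core TGACAG, read on both strands, was found in 9 of 49 (18.4%) and in 15.1% of all, and TATAAA, also on both strands, in 4 of 49 (8.16%) and in 11.9%. These are letter matches in the window and describe no binding. The RefSeq start nearest to the GENCODE start was used, with no limit on distance for the CpG and motif counts. Some windows thus lie at other starts, such as Prrx2 (10395 bases away), Lhx4 (9657) and Nkx2-2 (7841).

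Of the Msx genes, which respond to BMP signals in the limb, face and dorsal neural tube, Msx2 and Msx1 were higher and Msx3 lower. Msx2 (ENSMUSG00000021469, chr13:53466884-53473074, minus strand) had 0.6, 0.57 and 0.6 FPKM in control and 3.17, 5.03 and 4.79 FPKM in knockout cells, a 7.34-fold ratio of means (log2 fold change of 1.73 with SE 0.17, adjusted p = 0.000274 by limma). The controls were tight and the knockout libraries all far above them. Msx1 had 0.4, 0.33 and 0.2 FPKM in control and 0.99, 1.11 and 1.14 FPKM in knockout cells (log2 fold change of 0.67 with SE 0.10, adjusted p = 0.00541 by limma without a filter), also with no overlap. Msx3, which is restricted to the dorsal neural tube, had 0.58, 0.65 and 0.56 FPKM in control and 0.27, 0.24 and 0.23 FPKM in knockout cells (log2 fold change of -0.36 with SE 0.06, adjusted p = 0.00886 by limma without a filter), and its call was lost with a pseudocount of 0.1 (limma adjusted p = 0.0516).

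Dlx genes, distal-less factors of the forebrain, branchial arches, limbs and placenta, were low in the controls apart from Dlx3. Dlx3 had 1.29, 1.35 and 1.75 FPKM in control and 1.68, 2.14 and 2.32 FPKM in knockout cells, with overlapping groups and no call (log2 fold change of 0.31, adjusted p = 0.12 by limma). Dlx2 (ENSMUSG00000023391, chr2:71543408-71546754, minus strand) had 0.02, 0.02 and 0.14 FPKM in control and 1.2, 0.87 and 1.32 FPKM in knockout cells (log2 fold change of 1.00 with SE 0.11, adjusted p = 0.00183 by limma without a filter). Dlx5 had 0, 0 and 0.03 FPKM in control and 0.64, 0.57 and 0.35 FPKM in knockout cells (log2 fold change of 0.58 with SE 0.08, adjusted p = 0.00383 by limma without a filter). Every knockout library was above every control for Dlx2 and Dlx5. Dlx1, Dlx4 and Dlx6 lay at 0 to 0.46 FPKM in the control and 0.06 to 1.98 FPKM in the knockout libraries and were not called. The summed trophoblast markers were higher in the same libraries, and their part in the Dlx and Msx values was not tested.

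Emx genes pattern the dorsal telencephalon. Emx2 had 0.01, 0.03 and 0 FPKM in control and 0.44, 0.36 and 0.1 FPKM in knockout cells, with no overlap, and its call (log2 fold change of 0.35, adjusted p = 0.0488 by limma without a filter) was lost under 8 of the 10 other settings run for that fit. Emx1 lay at 0.6 to 0.69 and 0.42 to 1.12 FPKM with no call.

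The Nkx family, with 14 genes the largest of the set, held 3 higher and 2 lower of 5 tested genes. Nkx2-5 (ENSMUSG00000015579, chr17:26838664-26845009, minus strand), the cardiac progenitor factor, had 0.74, 0.72 and 0.62 FPKM in control and 5.79, 5.49 and 5.12 FPKM in knockout cells. It rose 7.88-fold in the ratio of means with little spread inside either group (log2 fold change of 1.93 with SE 0.12, adjusted p = 5.75e-05 by limma). Nkx2-9 (ENSMUSG00000058669, chr12:56611389-56613284, minus strand), a factor of the ventral neural tube, had 0.76, 0.63 and 0.15 FPKM in control and 3.4, 4.64 and 3.91 FPKM in knockout cells. It rose as well (log2 fold change of 1.74 with SE 0.20, adjusted p = 0.000472 by limma), and the groups were well apart. Both passed the filter through the knockout libraries only.

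Among the Nkx6 genes, regulators of ventral neural tube, pancreas and stomach, the directions differed. Nkx6-2 (ENSMUSG00000041309, chr7:139579376-139582797, minus strand) had 3.77, 3.21 and 3.27 FPKM in control and 9.17, 7.61 and 5.53 FPKM in knockout cells, with no overlap (log2 fold change of 0.91 with SE 0.18, adjusted p = 0.00473 by limma). Exons of Inpp5a on the opposite strand cover 12.9% of Nkx6-2, and Inpp5a had 16.85, 16.45 and 15.54 FPKM in control and 26.46, 27.78 and 31.43 FPKM in knockout cells. Nkx6-3 (ENSMUSG00000063672, chr8:23153269-23158948, plus strand), a stomach epithelium gene, had 5.51, 5.21 and 4.58 FPKM in control and 4.23, 1.7 and 1.54 FPKM in knockout cells. Knockout library 1 lay close to the controls and the other 2 knockout libraries were far below them. Its call as lower (log2 fold change of -0.88 with SE 0.28, adjusted p = 0.0305 by limma) was lost under 6 of 12 other settings: without any 1 of the 3 controls, without knockout library 2 or 3, and without a filter, with limma adjusted p = 0.0648 to 0.0996. Nkx6-1 had 0.02, 0.03 and 0.01 FPKM in control and 0.41, 0.3 and 0.35 FPKM in knockout cells and was higher without a filter (log2 fold change of 0.41 with SE 0.04, adjusted p = 0.00167 by limma without a filter).

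Nkx2-4 (ENSMUSG00000054160, chr2:147083316-147085445, minus strand), a close relative of Nkx2-1, had 2.5, 1.53 and 1.94 FPKM in control and 1.11, 0.65 and 0.36 FPKM in knockout cells. It fell (log2 fold change of -0.82 with SE 0.21, adjusted p = 0.0133 by limma), but was not called without control library 1, its highest (log2 fold change of -0.70, adjusted p = 0.0572 by limma). Nkx2-1, the thyroid, lung and ventral forebrain factor, and Nkx2-2, of the ventral neural tube and pancreas, were listed at 0 in all controls. Nkx2-1 had 0.13, 0.18 and 0.17 FPKM in the knockout libraries (log2 fold change of 0.21, adjusted p = 0.00347 by limma without a filter). Nkx2-2 had 0.51, 0.18 and 0.23 FPKM (log2 fold change of 0.38, adjusted p = 0.0303 by limma without a filter), a call lost under 5 of the 10 other settings run for that fit. Of the remaining genes, Nkx1-1, Nkx1-2, Nkx2-3, Nkx2-6 and Nkx3-2 lay at 0 to 0.67 FPKM in the control and 0 to 1.25 FPKM in the knockout libraries and were not called. The summed neural markers were lower in the knockout libraries, and their part in the values of these neural tube genes was not tested.

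**Figure D3:**
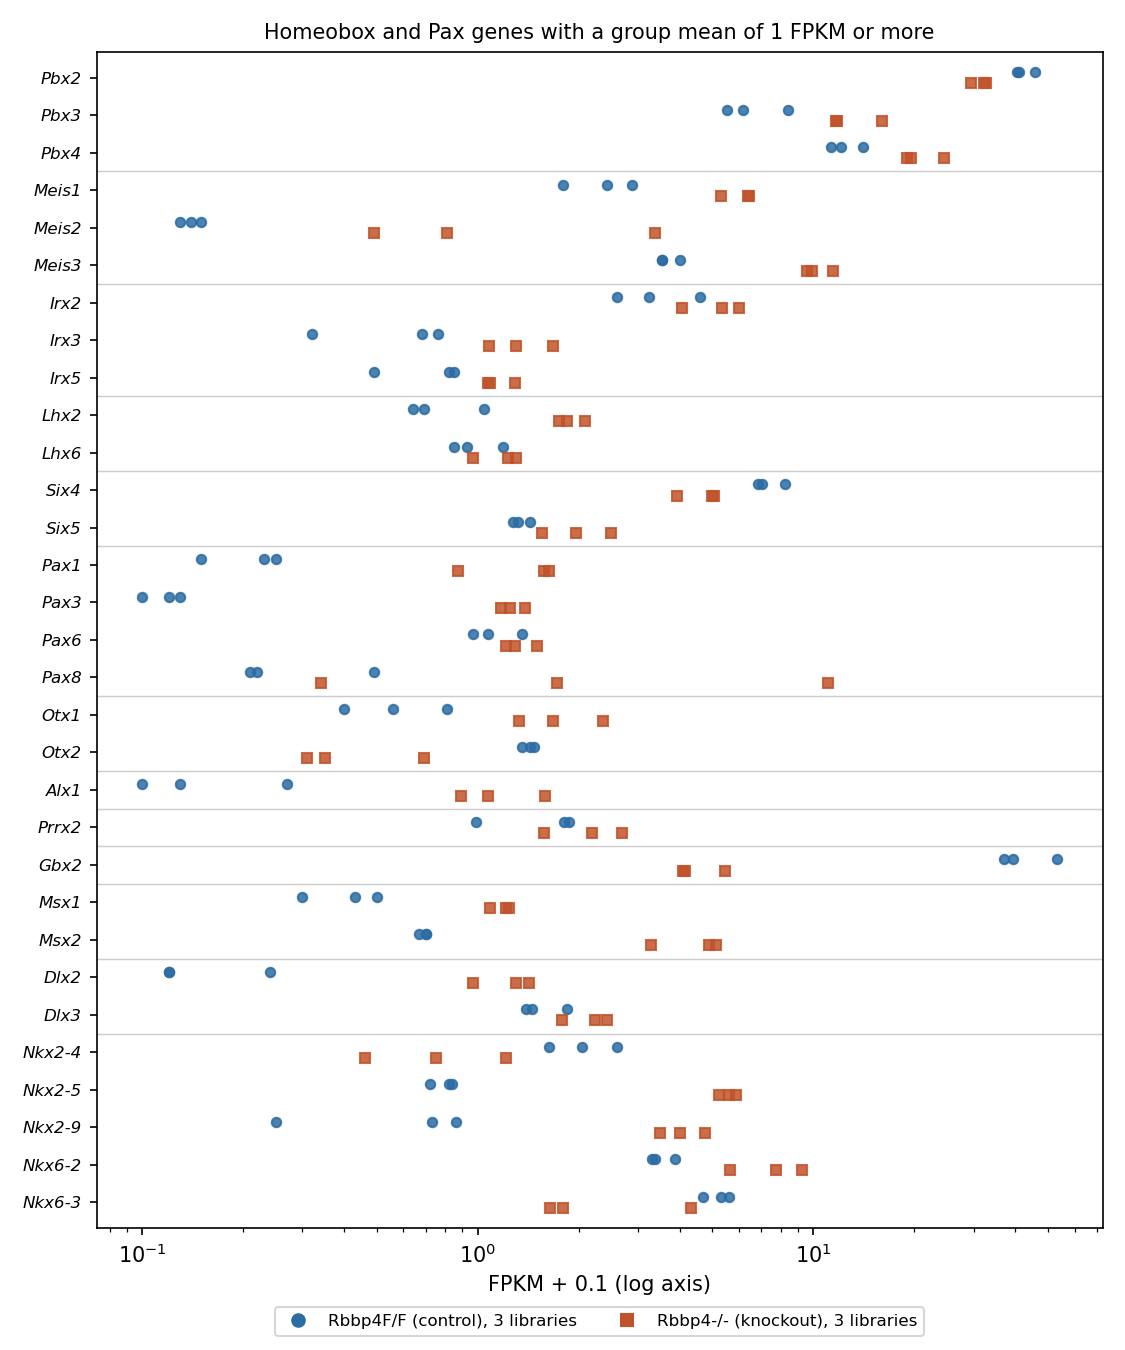
Level of 31 genes with a group mean of 1 FPKM or more (y axis, by family) as FPKM + 0.1 on a log axis (x axis), 1 point per library, circles for the 3 control and squares for the 3 knockout libraries. Gbx2 shows the widest gap to lower values, Msx2, Nkx2-5 and Nkx2-9 lie well above their controls, and the knockout points of Pax8 and Meis2 are spread widely.

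Several of the 70 genes are chromosomal neighbours. Within 1 Mb of each other lie 20 pairs that hold 27 of the genes. Both genes were called without a filter in 10 of them, in the same direction in 5 pairs and in opposite directions in the other 5. On chromosome 12, Nkx2-1, Nkx2-9 and Pax9 lie within 154.9 kb of each other and were all higher. Also on chromosome 12, Six4 was lower and Six6, 154.7 kb away, was higher. On chromosome 2, Nkx2-4 was lower and Nkx2-2, 92.1 kb away, was higher, as was Pax1, 276.5 kb away. Nkx6-2 was higher and Msx3, 463.4 kb away on chromosome 7, was lower. In the pairs of opposite direction, the call of Six6 was lost under all 10 other settings of its fit, that of Nkx2-2 under 5, that of Msx3 with a pseudocount of 0.1 and that of Nkx2-4 without control library 1, and Nkx2-2 is also in a pair of the same direction with Pax1. These pairs were described after the data were seen, and genes of a pair are not independent of each other.

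For some genes 1 knockout library stood far above the other 2. A rule set after seeing the values took genes whose highest library of a group had at least 0.5 FPKM and at least 3 times the next. In the knockout group 7 of 51 genes that reached 0.5 FPKM met it (13.7%), beside 313 of 13767 protein-coding genes (2.27%). In the controls 0 of 35 genes met it, beside 221 of 13138 (1.68%). These shares were not matched by level, and a ratio between libraries is less steady at low levels. A mean of 1 FPKM or more was reached by 24 of 69 genes of the set and by 12142 of 18016 protein-coding genes. Pax8, Nkx2-3 and Nkx3-2 had their high value in knockout library 1, Meis2, Dlx1 and Dlx6 in knockout library 2, and Lhx1 in knockout library 3.

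The high library was not the same for all 7 genes. Dlx6 had 0, 0 and 0.11 FPKM in control and 0.23, 1.98 and 0.12 FPKM in knockout cells. Its neighbour Dlx5, 9.2 kb away, had 0.64, 0.57 and 0.35 FPKM in the knockout libraries, with no such peak in knockout library 2. Lhx1, a factor of the head organizer and kidney, had 0, 0 and 0.03 FPKM in control and 0.1, 0.37 and 1.14 FPKM in knockout cells. Dlx1 had 0.14, 0.83 and 0.06 FPKM in the knockout libraries, where its neighbour Dlx2, 9.4 kb away, had 1.2, 0.87 and 1.32 FPKM. Nkx2-3 and Nkx3-2 had 0.64, 0.18 and 0.08 and 0.51, 0.03 and 0.08 FPKM in the knockout libraries, in the order of their numbers. Exons on the opposite strand cover 6.2% of Dlx1, 4.4% of Dlx6 and 6.1% of Pax8. None of the 7 genes passed the filter, so none was tested with it. Without the filter, with all 6 libraries and a pseudocount of 1, none was called. The rule itself takes genes with a wide spread between knockout libraries, which makes a call less likely. The call of Meis2 at a pseudocount of 0.1 is given above.

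**Figure D4:**
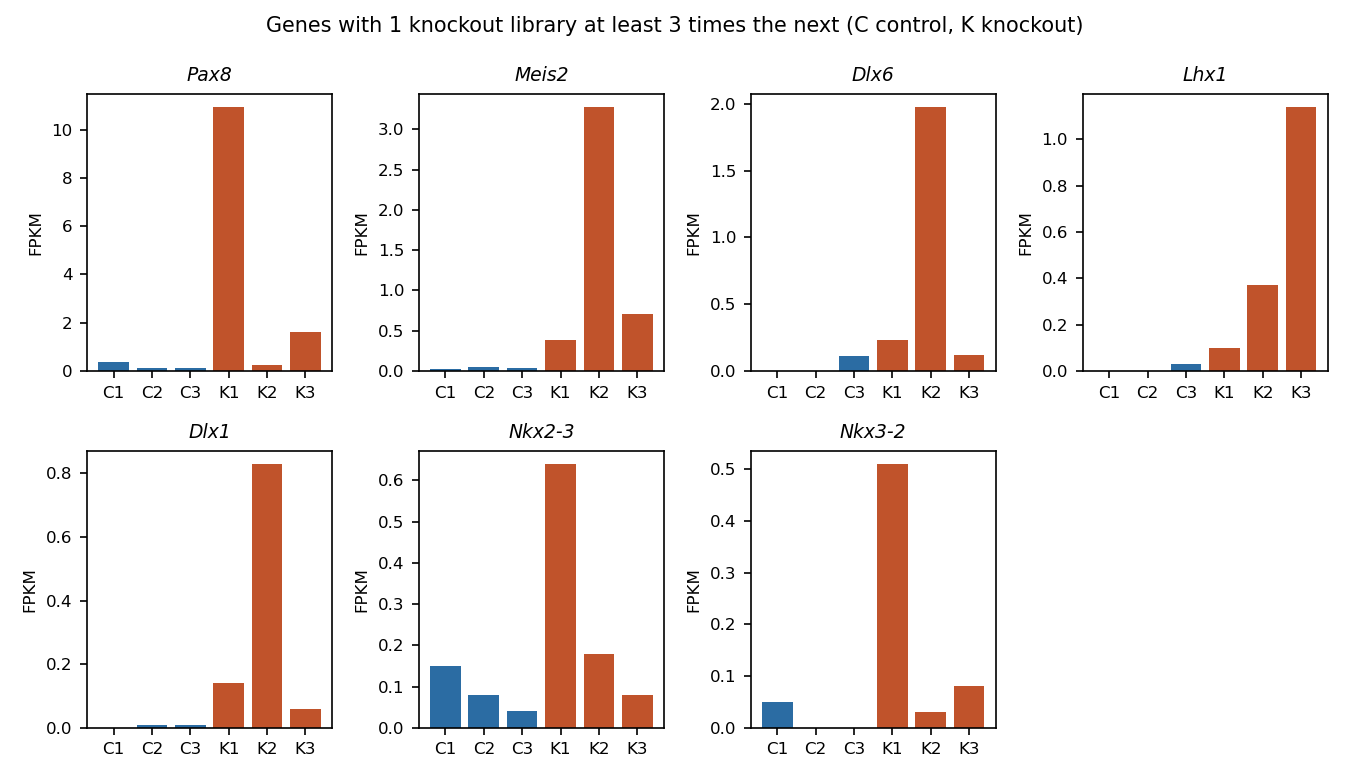
FPKM (y axis, linear from 0) in each of the 3 control (C) and 3 knockout (K) libraries (x axis) for the 7 genes with 1 knockout library at least 3 times the next. Each bar is 1 library; the high bar is knockout library 1 for Pax8, Nkx2-3 and Nkx3-2, library 2 for Meis2, Dlx6 and Dlx1, and library 3 for Lhx1.

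Homeobox genes outside these families and the Groucho family genes give the surroundings. Of 59 other homeobox genes found in the files 16 were tested, with 8 higher and 4 lower and a median log2 fold change of 0.56, and without a filter 57 were tested with 18 higher and 2 lower. Over all genes tested with the filter 36.7% were higher and 22.5% lower. Without it 25.8% of protein-coding genes were higher and 14.3% lower. Barx1, a stomach mesenchyme and tooth factor, rose from 2.50 ± 0.170 FPKM (SD, n = 3) to 9.54 ± 1.73 FPKM (SD, n = 3) (log2 fold change of 1.58 with SE 0.16, adjusted p = 0.000257 by limma). Cdx2, the trophoblast and hindgut factor that is also on the trophoblast marker list, had 0, 0.12 and 0.06 FPKM in control and 1.4, 1.77 and 1.39 FPKM in knockout cells (log2 fold change of 1.25 with SE 0.14, adjusted p = 0.000389 by limma). Tlx3, a sensory neuron factor, rose from 3.73 ± 0.131 FPKM (SD, n = 3) to 9.24 ± 1.68 FPKM (SD, n = 3) (log2 fold change of 1.10 with SE 0.15, adjusted p = 0.000785 by limma). Several homeodomain repressors of these families recruit Groucho proteins, and the list used here holds Tle genes and Aes as genes of the Groucho family. Whether each of them acts as a corepressor was not tested. Of 6 such genes 5 were tested, 4 fell and none rose, with a median of -0.48. Aes fell from 119.9 ± 4.47 FPKM (SD, n = 3) to 71.9 ± 8.16 FPKM (SD, n = 3) (log2 fold change of -0.73 with SE 0.09, adjusted p = 0.000707 by limma), and Tle3 (log2 fold change of -0.48, adjusted p = 0.00633 by limma) and Tle6 (log2 fold change of -0.49, adjusted p = 0.0187 by limma) fell less.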

How the data were processed

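The authors deposited 1 value per gene and library, without a header, taken to be FPKM from the values, which are not whole numbers and sum to 697933 to 800146 per library. Tools listed, with no role, per the submitters' processing notes are HISAT2 2.1.0, RSEM, FastQC and DESeq 1.26.0, and the build is GRCm38.p6. Use of strand in counting is not given in the sources used here. Exon overlaps are therefore stated for some genes, and not all are listed. Among the others, exons on the opposite strand cover 8.8% of Emx2 (Emx2os), 9.7% of Nkx2-2 (Nkx2-2os), 5.0% of Six3 and 4.5% of Irx3 (Irx3os). Libraries were grouped by title. Of 52872 rows per file, 2 without a gene were left out. An abundant transcript that falls raises the FPKM of the rest, so other scalings were tried. Depth came from the even spacing of low values, of which 73.6% to 78.8% lay within 0.15 of a whole step in each library, and fragments per gene were not recovered.

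Symbols came from GENCODE M21 on GRCm38. log2(FPKM + 1) was fitted in R 4.3.3 by limma 3.58.1 (moderated variances with a trend on the mean, group as the term, two-sided tests). A check on simulated data used only genes that passed the filter, so it does not cover the fit without one. Fold changes on the log2(FPKM + 1) scale understate the change of low genes. Tables and plots used Python 3.11.15. Results of 4 of the 70 genes are not reported here, beyond counts, sums and medians over the set. The genes given with each library's value reached a mean of 1 FPKM in a group or were called without a filter, up to 3 per family by the smallest p; for each cofactor list up to 3 called genes with the smallest p are named. Members of the 7-gene set with uneven knockout libraries were chosen after their values were seen. The genes and lists were chosen with earlier results of these data known. Alternatives were median-ratio and upper-quartile scaling, a pseudocount of 0.1, a filter of 0.5 FPKM, no filter, a replicate block and each library left out.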

Additional observations from a re-analysis of the deposited data

How the results depend on the processing

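Of the 47 genes that the rule on levels and calls selected, 37 kept their call or lack of one under every setting run for them, 8 lost a call under at least 1, 2 gained one, and no called gene turned its direction. Of genes never called, 2 turned their sign with upper-quartile scaling, Lhx6 from 0.13 to -0.002 and Pax6 from 0.14 to -0.0003. The count of higher genes was 12, and 11 to 12 under both other scalings, a pseudocount of 0.1 and the replicate block, 18 with a filter of 0.5 FPKM and 28 without a filter, where more genes were tested. It ranged from 13 to 16 with 1 library left out. The count of lower genes was 8, from 8 to 10 under the other settings and from 6 to 8 with 1 library left out. Without a filter, 28 higher genes became 24 with median-ratio and 22 with upper-quartile scaling, and the 9 lower genes became 5 without control library 1 or knockout library 2. Over all genes the split of 4978 higher and 3051 lower calls moved to 3993 and 3844 with median-ratio and 3453 and 4402 with upper-quartile scaling, with the median log2 fold change at 0.17, 0.02 and -0.07. Levels under about 0.1 FPKM rest on few fragments.

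Same-numbered libraries did not deviate together (correlations -0.0012, -0.0093 and 0.0492), so no pairing by number was visible. The labels do not say whether same-numbered libraries were prepared together, and these correlations cannot exclude it. With the replicate block, 12 genes were higher and 8 lower with the filter, and 21 higher and 6 lower without it, while 4872 genes were higher and 2907 lower over all.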

Other observations

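Of the 70 genes 43 have an annotated gene on the opposite strand that overlaps them or lies within 5 kb, 53 such genes in all. Of these 24 were listed at 0 in every library, and of 10 tested 4 were higher and 2 lower. Pax6os1, beside Pax6, had 6.1, 8.86 and 25.17 FPKM in control and 32.42, 46.88 and 26.74 FPKM in knockout cells and was called higher (log2 fold change of 1.53, adjusted p = 0.0265 by limma), while Pax6 was not, and the call was absent without a filter. Crnde, beside Irx5, had 23.26, 1.28 and 3.04 FPKM in control and 2.15, 2.17 and 1.77 FPKM in knockout cells. Control library 1 stood apart and Crnde was not called (log2 fold change of -1.0, adjusted p = 0.306 by limma). Otx2os1 had 0.4, 0.08 and 0.58 FPKM in control and 0.71, 0 and 0 FPKM in knockout cells and Six3os1 had 0.01, 0.36 and 0 FPKM in control and 0.31, 0.15 and 0.75 FPKM in knockout cells, both with overlapping groups. Dlx1as and Nkx2-2os were listed at 0 in all libraries, although Nkx2-2 was not in the knockout libraries. Whether antisense reads were kept apart from those of the genes is not given in the sources used here.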
